A study of Rattus norvegicus with 24 samples.

Results

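The genes described here are 5 small leucine-rich proteoglycans, Dcn, Bgn, Lum, Fmod and Ogn, and 4 other proteins of the stromal matrix, Sparc, Fn1, Postn and Tnc. They were chosen by name, as those gene probes of a rat expression array whose symbol, after an old predicted-gene suffix was dropped or an older name was updated through its accession, is one of the 9. All 9 were on the array and all 9 passed the filter on dim probes, so they are 9 of 26097 measured features.

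The animals were (ACIxF344)F1-Pirc males aged 97 days, heterozygous for a mutant Apc allele (Apc-Pirc/+) that leads to colonic tumours. The tumours of DSS rats, and the normal distal colon of the same rats, came from 5 animals given dextran sodium sulfate (4% in drinking water, from day 40 to 47 and again from day 54 to 61), a polymer that injures the colonic epithelium. The tumours of untreated rats, and the normal distal colon of the same rats, came from 5 others of the same strain, genotype and age that were given no DSS. The Apc mutation is thus shared by every group, the untreated normal colon included, and the only wild-type tissue is the pooled colon RNA against which each array was hybridised. Tissue pieces were measured whole, so a lower value can reflect fewer cells that make a transcript or less transcript in each cell, and these cannot be told apart. Each value is the log2 ratio of a sample (Cy3) over the wild-type colon pool (Cy5), and a probe's level is never set against that of another probe.

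Small leucine-rich proteoglycans are secreted proteins built of leucine-rich repeats that carry sugar chains and bind collagen fibrils, where they set how fibrils assemble and space. Sparc, periostin and tenascin-C are matricellular proteins, which modulate how cells attach and respond to matrix rather than form its scaffold, and fibronectin is an adhesive glycoprotein that links collagen and other matrix to integrins. In the colon wall these proteins come chiefly from fibroblasts, pericytes and smooth muscle, and several are known to be made more strongly in wound repair and in the stroma that surrounds tumours.

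The 24 arrays lay on 6 slides scanned on 3 days. Slides of the first 2 days held 3 rats of each group and slides of the third day held 2, and Cy5 saturation was more frequent on the third-day arrays (388 to 452 probes) than on the earlier ones (29 to 152), without touching any probe of the 9 genes. On 3 arrays between 86.9% and 95.2% of probes were well above background, against 47.6% to 70.5% on the other 21. These were 1 of the 2 arrays of the normal colon of untreated rat 2, the normal colon of untreated rat 4, and the tumour of DSS rat 9. The 2 arrays of the normal colon of rat 2 differed by a median of 1.08 on the log2 scale over the 9 matrix genes, whereas the repeat arrays of the other 3 samples that had them differed by a median of 0.11 to 0.32. The normal colon samples of DSS rats 1 and 5 correlated at 0.970 over all features. Counts without these samples are given where they change.

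Sequences of 4 probes are given below. Fibronectin values come from a single-spot probe that is not shown, except where the 10-spot probe is named. The decorin, Sparc and lumican probes are the ones from which those genes' values come, and the fibronectin sequence is the probe that was spotted 10 times, which differs from the single-spot fibronectin probe in what it shows for DSS. Capitals in the decorin probe mark 8 bases, within a shared stretch of 44, at which a further array probe described as decorin under the file name NP071980 carries another base. That further probe was well above background on 2 of 24 arrays and is not counted among the 9 genes.
Dcn probe: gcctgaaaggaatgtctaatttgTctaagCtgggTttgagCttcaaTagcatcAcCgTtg
Sparc probe: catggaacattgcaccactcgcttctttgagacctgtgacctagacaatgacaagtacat
Lum probe: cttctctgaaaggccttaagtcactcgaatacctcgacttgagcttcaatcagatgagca
Fn1 probe with 10 spots: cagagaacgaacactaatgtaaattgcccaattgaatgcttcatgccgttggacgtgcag

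In the RefSeq annotation of the GRCr8 rat assembly, decorin (Dcn, gene ID 29139) lies at chr7:34167973-34208004 and lumican (Lum, 81682) is close by at chr7:34245323-34252510. Biglycan (Bgn, 25181) lies at chrX:156348633-156360797, fibromodulin (Fmod, 64507) at chr13:48045567-48056184 and osteoglycin (Ogn, 291015) at chr17:15238500-15259167. Sparc (24791) lies at chr10:40017065-40038816, fibronectin (Fn1, 25661) at chr9:80645507-80714200, periostin (Postn, 361945) at chr2:140677774-140709304 and tenascin-C (Tnc, 116640) at chr5:82391340-82476197.

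The 250 bases upstream of the annotated start are shown for a pair of genes that behaved differently. Sparc was among the genes that were higher in tumours of untreated rats, and Fmod was not higher in tumours in that comparison. Both sequences are from RefSeq (GRCr8), Sparc on the minus strand at chr10:40038817-40039066 and Fmod on the plus strand at chr13:48045317-48045566. Capitals mark matches, on either strand, to the motif TATAAA, to the motif GGAATG, to the motif GGGCGG, to the motif TGANTCA or to the CArG box, with overlapping matches allowed.
Sparc upstream: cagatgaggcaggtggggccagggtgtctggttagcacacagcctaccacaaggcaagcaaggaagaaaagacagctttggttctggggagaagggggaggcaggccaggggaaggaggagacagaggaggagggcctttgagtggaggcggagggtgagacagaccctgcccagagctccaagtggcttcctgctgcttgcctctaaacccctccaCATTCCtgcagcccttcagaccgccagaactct
Fmod upstream: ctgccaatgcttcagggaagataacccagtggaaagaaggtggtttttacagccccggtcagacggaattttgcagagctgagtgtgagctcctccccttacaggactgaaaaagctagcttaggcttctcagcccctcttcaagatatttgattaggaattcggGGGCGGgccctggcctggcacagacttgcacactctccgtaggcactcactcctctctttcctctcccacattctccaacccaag
The Sparc window held GGAATG, read on the opposite strand, as did 11.8% of 27457 upstream windows of the same length in the rat annotation. The Fmod window held GGGCGG, as did 32.4% of them. TATAAA was present in 13.1% of all windows, TGANTCA in 6.36% and the CArG box in 1.5%, and these letters were in neither of the windows shown.

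Against the wild-type colon pool, the 9 genes had low ratios in the Pirc normal colon. In the tumours 72 of 90 values (9 genes in 10 rats) were below the pool, and in the normal colon 90 of 90 were. Over all features 50.2% of values in tumours and 50.4% in normal colon were below the pool. The plot of values by rat shows this for each gene. Normalisation within each array centres the ratios, so the shares over all features lie near the middle by construction. All samples carried the same dye and the pool always carried the other. A dye effect of a probe thus cannot be told apart from a difference to wild type. The values also share a pool and come from the same rats, so they are not independent observations.

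**Figure D1:**
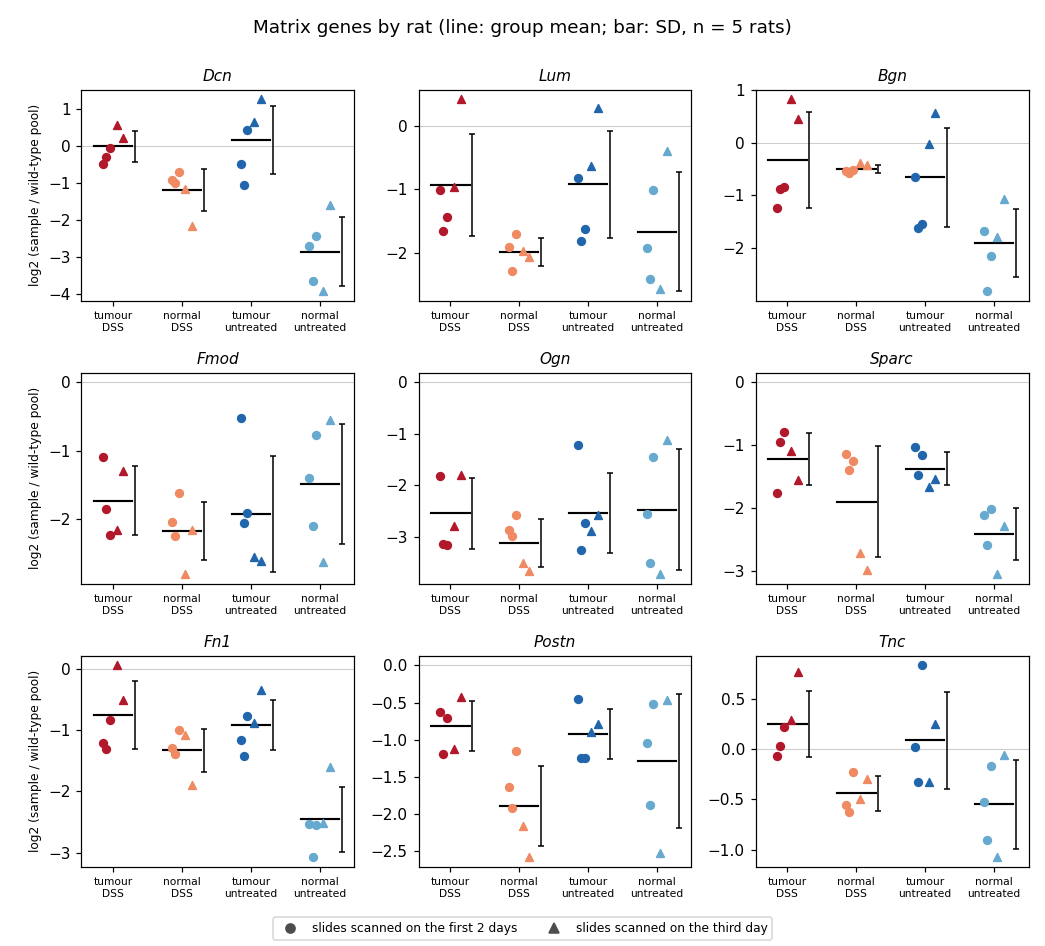
Log2 ratio of each sample over the wild-type colon pool (vertical axis) for the 9 matrix genes, by group (horizontal axis). Each point is 1 rat, circles from slides scanned on the first 2 days and triangles from the third day, with the group mean as a line and the SD as a bar (n = 5 rats). Dcn shows the widest gap, with tumours of untreated rats at -1.05 to 1.28 and their normal colon at -3.92 to -1.58.

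The first comparison asked how tumours differ from normal colon in rats that had no DSS. Decorin rose 8.15-fold, fibronectin 2.92-fold and Sparc 2.06-fold, and the remaining 6 genes did not pass the test. Thus 3 of 9 genes were higher and 0 lower at an adjusted p under 0.05 (limma's moderated test, Benjamini-Hochberg adjustment over all features), against 8.7% of all features that were higher and 18.2% that passed in either direction. The median log2 difference over the 9 was 0.74, and over all features it was -0.00155. For the same 3 genes the 5 tumour values lay wholly above the 5 normal values, which was so for 6.28% of all features. With median centring in place of loess 1 of the 9 passed, Dcn, against 3.46% of all features. With loess followed by scaling of the arrays to a common spread 1 passed, Tnc, against 8.99%, where the adjusted p of Dcn was 0.0776 by limma. With the deposited processed signals 6 of the 9 passed, against 22.8% of all features.

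Decorin, the class I proteoglycan that coats collagen fibrils and binds TGF-beta, was -0.48, -1.05, 0.46, 0.66 and 1.28 in the tumours of untreated rats 2, 3, 4, 8 and 10, against -2.70, -3.63, -2.43, -3.92 and -1.58 in their normal colon. The lowest tumour was above the highest normal sample, and the difference was 3.03 ± 0.44 (log2, SE, adjusted p = 0.000155 by limma), with the tumour higher in 5 of 5 rats. Within a rat the gap ran from 2.22 to 4.58. It was 2.56 ± 0.37 on slides of the earlier days and 3.72 ± 0.74 on those of the third day. Decorin passed the test in every fit that left out 1 rat.

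Fibronectin, the adhesive ligand of several integrins, was -1.16, -1.42, -0.76, -0.88 and -0.35 in tumours of untreated rats 2, 3, 4, 8 and 10, against -2.54, -3.07, -2.55, -2.53 and -1.60 in their normal colon. The groups did not overlap, 5 of 5 rats had the higher value in the tumour, and the difference was 1.54 ± 0.28 (adjusted p = 0.000919 by limma). The 10-spot probe gave 1.28 ± 0.34 (adjusted p = 0.0122), so both fibronectin probes passed in this comparison.

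Sparc, a collagen-binding glycoprotein of remodelling tissue, was -1.03, -1.48, -1.16, -1.66 and -1.54 in tumours of untreated rats 2, 3, 4, 8 and 10. In their normal colon it was -2.12, -2.59, -2.02, -3.05 and -2.29. The groups did not overlap and the gap within a rat was narrow, from 0.75 to 1.39, but the call was less firm than the 2 above, with a difference of 1.04 ± 0.33 and an adjusted p of 0.0317 by limma. It was lost when any 1 of the 5 untreated rats was left out, with an adjusted p of up to 0.11.

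Biglycan, the other class I proteoglycan, which can also signal through Toll-like receptors when freed from the matrix, was -0.66, -1.61, -1.53, -0.02 and 0.55 in tumours of untreated rats 2, 3, 4, 8 and 10. Their normal colon gave -1.68, -2.81, -2.15, -1.79 and -1.07. The tumour was higher in 5 of 5 rats, by 0.62 to 1.77, yet the groups overlapped and the difference of 1.25 ± 0.43 did not pass (adjusted p = 0.0534). Its tumours differed by scan day, with a mean of 0.26 on the third-day slides and -1.27 on the earlier ones. With the scan set as a block the adjusted p was 0.00372, and with the rat as a replicate block, which compares tissues within each animal, it was 0.00647.

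Tenascin-C, a large glycoprotein that appears in wounds and around tumours, was 0.02, -0.33, 0.83, -0.33 and 0.25 in tumours of untreated rats 2, 3, 4, 8 and 10, against -0.53, -0.91, -0.17, -1.08 and -0.06 in their normal colon. The tumour was higher in 5 of 5 rats by 0.31 to 1.0, with overlapping groups and a difference of 0.64 ± 0.23 (adjusted p = 0.0587 by limma). The replicate block, which removes the differences between animals, gave an adjusted p of 0.00189. The Tnc probe was well above background on 2 of 7 normal arrays of untreated rats, so its low values there are close to the limit of measurement.

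The proteoglycans of the other classes did not pass in the main fit. Lumican, a class II member that regulates fibril thickness, was -0.83, -1.81, -1.63, -0.64 and 0.28 in tumours of untreated rats 2, 3, 4, 8 and 10, against -1.93, -2.42, -1.02, -2.58 and -0.40 in their normal colon. It was higher in the tumour in 4 of 5 rats, by 0.74 ± 0.45 over all (adjusted p = 0.299), with rat 4 the exception. The normal colon of rat 4 was measured only on an array of raised signal. Without the 3 arrays of raised signal the lumican difference was 1.07 ± 0.44 (adjusted p = 0.111 by limma). With the deposited processed signals it was 2.69 ± 0.60 and passed (adjusted p = 0.00259 by limma), so the lumican result depends on the processing. The Lum probe was well above background on 4 of 7 normal arrays of untreated rats.

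Fibromodulin, a class II member that steers collagen crosslinking, ranged from -2.62 to -0.52 in tumours of untreated rats and from -2.62 to -0.55 in their normal colon, a difference of -0.44 ± 0.41 (adjusted p = 0.557). Osteoglycin, of class III, ranged from -3.25 to -1.22 in the tumours and from -3.73 to -1.11 in the normal colon, a difference of -0.06 ± 0.49 (adjusted p = 0.962). Periostin, a matricellular protein that helps lysyl oxidase act on collagen, ranged from -1.25 to -0.45 in the tumours and from -2.53 to -0.46 in the normal colon, a difference of 0.36 ± 0.34 (adjusted p = 0.564). For these 3 genes the normal colon of untreated rats 4 and 10 held the 2 highest values of its group, and the tumour of rat 2 the highest of its own. The normal colon of rat 4 was measured only on an array of raised signal. In the normal colon of rat 2, the raised array read Fmod, Ogn and Postn at -0.77, -1.99 and -0.40, and its repeat at -2.02, -3.14 and -1.68. Without the 3 raised arrays the difference was -0.11 ± 0.44 for Fmod and 0.34 ± 0.50 for Ogn, and neither passed, nor did Postn. With all arrays the 95% intervals were wide, from -1.31 to 0.43 for Fmod, -1.08 to 0.96 for Ogn and -0.36 to 1.08 for Postn. Differences inside those bounds could not be told from 0.

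**Figure D2:**
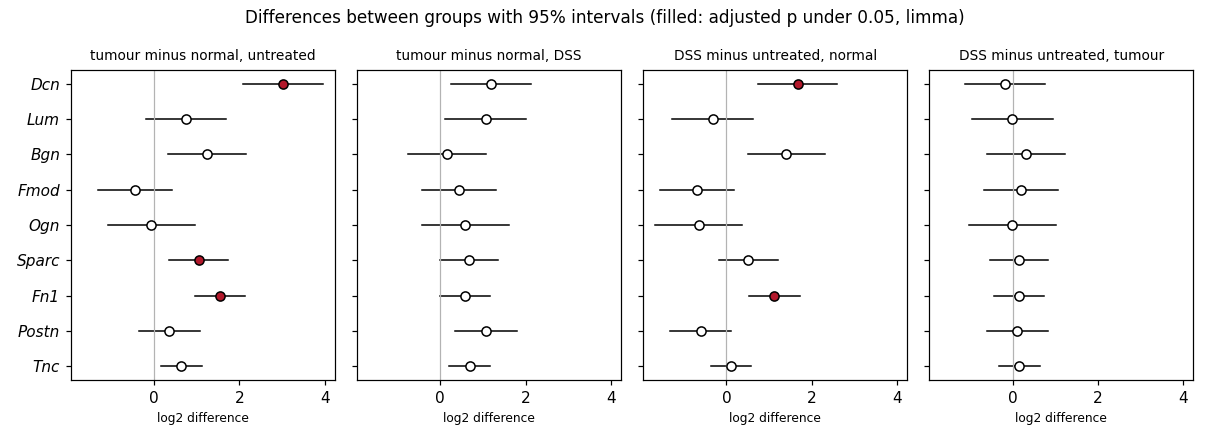
Log2 difference between groups (horizontal axis, point) with its 95% interval (line) for each matrix gene (vertical axis) in 4 comparisons, each of 5 against 5 samples. Filled points passed the test at an adjusted p under 0.05 (limma), namely Dcn, Sparc and Fn1 for tumours against normal colon of untreated rats, and Dcn and Fn1 for normal colon of DSS against untreated rats.

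The same comparison of tumour with normal colon was made in rats that had received DSS. Of the 9 genes 0 passed the test, against 7.66% of all features, although 9 of 9 differences were positive with a median of 0.67, where the median of all features was 0.0216. For 3 of 9 genes, Dcn, Lum and Tnc, the 5 tumour values lay wholly above the 5 normal values, which was so for 3.83% of all features. At an unadjusted p under 0.05 there were 4 of 9, Dcn, Lum, Postn and Tnc, against 19.8% of all features. With the rat as a replicate block 3 of 9 genes passed, against 12.5% of all features, Tnc with an adjusted p of 0.00299, Dcn with 0.0468 and Postn with 0.0496.

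Decorin was -0.48, -0.28, -0.04, 0.57 and 0.22 in tumours of DSS rats 1, 5, 6, 7 and 9, against -0.91, -1.0, -0.70, -1.16 and -2.15 in their normal colon, a difference of 1.18 ± 0.44 (adjusted p = 0.126 by limma). The groups did not overlap, and rats 7 and 9, the pair scanned on the third day, had the widest gaps. The difference was 0.61 ± 0.37 on the earlier slides and 2.05 ± 0.74 on those of the third day.

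Lumican was -1.01, -1.65, -1.44, -0.97 and 0.42 in tumours of DSS rats 1, 5, 6, 7 and 9, against -1.92, -2.29, -1.70, -1.98 and -2.08 in their normal colon, a difference of 1.06 ± 0.45 (adjusted p = 0.182). The normal samples lay close together and the tumours were spread, with rat 9, whose tumour array had raised signal, the highest. Tenascin-C was -0.07, 0.03, 0.22, 0.29 and 0.77 in the same tumours, against -0.55, -0.63, -0.22, -0.49 and -0.29 in the same rats' normal colon, a difference of 0.69 ± 0.23 (adjusted p = 0.075).

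Periostin was -0.62, -1.19, -0.71, -1.12 and -0.42 in tumours of DSS rats 1, 5, 6, 7 and 9, against -1.63, -1.92, -1.15, -2.16 and -2.58 in their normal colon. The tumour was higher in 5 of 5 rats and the groups overlapped by a single pair, with a difference of 1.08 ± 0.34 (adjusted p = 0.0645). With the scan set as a block the adjusted p was 0.0465.

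Sparc was -1.76, -0.95, -0.78, -1.09 and -1.55 in tumours of DSS rats 1, 5, 6, 7 and 9, against -1.14, -1.39, -1.25, -2.72 and -2.98 in their normal colon. Its normal samples fell into those of the earlier slides, with a mean of -1.26, and those of the third day, with a mean of -2.85. The difference between tumour and normal colon was accordingly 0.10 ± 0.24 on the earlier slides and 1.53 ± 0.28 on the third-day ones, against 0.67 ± 0.33 over both (adjusted p = 0.263). The part of the scan day in this was not tested beyond these values, since the 2 sets also hold different rats.

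Fibronectin differed by 0.57 ± 0.28 (adjusted p = 0.27) in DSS rats, fibromodulin by 0.45 ± 0.41 (0.607), osteoglycin by 0.58 ± 0.49 (0.561) and biglycan by 0.16 ± 0.43 (0.888). The other fibronectin probe, whose sequence is given above, gave a larger difference, 1.05 ± 0.34 (adjusted p = 0.066 by limma). Its unadjusted p was 0.00576, against 0.0558 for the single-spot probe, and neither fibronectin probe passed after adjustment. Biglycan was higher in the tumour in 2 of 5 DSS rats, the pair scanned on the third day, at 0.82 and 0.45 against -0.39 and -0.43 in their normal colon. In rats 1, 5 and 6 its tumours were at -1.23, -0.87 and -0.84, against -0.54, -0.58 and -0.53 in their normal colon, so that the direction turned with the scan set.

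The next comparison set the normal colon of DSS rats, in which DSS had been withdrawn weeks before, against that of untreated rats. These samples also differed in squamous epithelium markers, described below. Their list mean was 3.01 to 5.05 in DSS rats and -0.51 to 1.57 in untreated rats. The part of such tissue in the differences was not tested. Decorin rose 3.18-fold and fibronectin 2.18-fold in the normal colon of DSS rats over that of untreated rats, and biglycan was 2.65-fold higher without passing the test. So 2 of 9 genes were higher and 0 lower, against 3.98% of all features that were higher and 7.37% that passed in either direction. The median log2 difference over the 9 was 0.11, and over all features it was -0.0147. With median centring, with scaled arrays or within the third-day slides 0 of the 9 passed. Over all features 1.39%, 4.72% and 0.00766% passed in these fits, in that order. The comparisons share samples: the normal colon of DSS rats enters this one and the one before it, and the normal colon of untreated rats enters this one and the first.

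Decorin in the normal colon had a mean of -1.18 ± 0.56 in DSS rats and -2.85 ± 0.94 in untreated rats (SD, n = 5 each), a difference of 1.67 ± 0.44 (SE, adjusted p = 0.0282 by limma). The groups overlapped, since DSS rat 9 at -2.15 was below untreated rat 10 at -1.58. The difference was 2.05 ± 0.37 on the earlier slides and 1.10 ± 0.74 on the third-day ones. With the slide as a block the difference was 1.61 ± 0.51 and the call was lost (adjusted p = 0.0565). It was also lost in 7 of the 10 fits that left out 1 rat, those without rat 1, 2, 3, 5, 6, 7 or 8, with an adjusted p of up to 0.08.

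Fibronectin in the normal colon was -1.30, -1.39, -1.0, -1.08 and -1.90 in DSS rats 1, 5, 6, 7 and 9, against -2.54, -3.07, -2.55, -2.53 and -1.60 in untreated rats 2, 3, 4, 8 and 10. One sample of each group, DSS rat 9 and untreated rat 10, crossed over, and the difference was 1.12 ± 0.28 (adjusted p = 0.0202 by limma). The 10-spot probe gave 0.51 ± 0.34 (adjusted p = 0.427), so that the fibronectin call in this comparison rests on the single-spot probe. It was also lost in 4 of the 10 fits that left out 1 rat, those without rat 2, 3, 4 or 6, with an adjusted p of up to 0.0615.

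Biglycan in the normal colon lay in a narrow band in DSS rats, at -0.54, -0.58, -0.53, -0.39 and -0.43 in rats 1, 5, 6, 7 and 9, against -1.68, -2.81, -2.15, -1.79 and -1.07 in untreated rats 2, 3, 4, 8 and 10. It was 1 of 9 genes whose groups did not overlap. Of all features 4.59% were apart and higher in DSS rats, and 4.12% apart and lower. The difference of 1.41 ± 0.43 had an adjusted p of 0.0562, which became 0.0466 with the rat as a random replicate block and 0.00357 with the scan set as a block.

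Sparc, at 0.52 ± 0.33 higher (adjusted p = 0.394), again differed by scan set, by 0.98 ± 0.24 on the earlier slides (adjusted p = 0.0257) and by -0.18 ± 0.28 on the third-day ones. Tenascin-C differed by 0.11 ± 0.23. Its probe was well above background on 2 of 7 normal arrays of untreated rats and on 6 of 6 of DSS rats. With the deposited processed signals the tenascin-C difference was 2.02 ± 0.56 and passed (adjusted p = 0.0236 by limma), so this result depends on the processing. Lumican, fibromodulin, osteoglycin and periostin were lower by values that did not pass, at -0.32 ± 0.45, -0.69 ± 0.41, -0.65 ± 0.49 and -0.60 ± 0.34, with adjusted p-values of 0.742, 0.367, 0.491 and 0.338.

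Among tumours, 0 of 9 genes differed between DSS and untreated rats, as did 0% of the 26097 features after adjustment by limma. At an unadjusted p under 0.05 there were 0 of 9, against 6.35% of all features. No gene's groups were apart, whereas of all features 0.483% were apart and higher in DSS tumours and 0.333% apart and lower. The 9 differences ran from -0.17 for decorin to 0.32 for biglycan. The 95% interval for decorin was -1.11 to 0.76, for fibronectin -0.44 to 0.74, for Sparc -0.54 to 0.83 and for biglycan -0.59 to 1.23, and differences inside such bounds could not be told from 0 with 5 rats a group.

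The DSS effect in tumours minus that in normal colon was -1.84 ± 0.63 for decorin (adjusted p = 0.141 by limma), -0.97 ± 0.40 for fibronectin (0.236) and -1.08 ± 0.61 for biglycan (0.433). None of the 9 genes passed this test of the difference itself, against 2.61% of all features. At an unadjusted p under 0.05 there were 2 of 9, Dcn and Fn1, against 15.2% of all features. The other fibronectin probe, whose sequence is given above, gave -0.23 ± 0.47 (adjusted p = 0.872 by limma). The fibronectin value in this test thus rests on the single-spot probe. With the rat as a replicate block the adjusted p for decorin was 0.0513. The order of the group means put the normal colon of untreated rats lowest for decorin, fibronectin, biglycan, Sparc and tenascin-C. For lumican, fibromodulin, osteoglycin and periostin the normal colon of DSS rats was lowest. Neighbours in these orders overlapped in range for each of the 9 genes, except that tumours of DSS rats lay wholly above the normal colon of DSS rats for decorin.

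Over the 20 samples some of the 9 genes were closely alike and others were not, which the heat maps of likeness show. These correlations are descriptions over samples that share rats, slides and 1 reference pool. Decorin and fibronectin had a Pearson's r of 0.94, fibronectin and biglycan 0.85, and decorin and biglycan 0.75. Fibromodulin and osteoglycin had 0.88, osteoglycin and periostin 0.82, and lumican and periostin 0.79, whereas fibromodulin had -0.09 with decorin and -0.16 with fibronectin. The other genes lay between these. Decorin had 0.76 with tenascin-C, 0.74 with Sparc, 0.64 with lumican and 0.51 with periostin, and tenascin-C had 0.69 with lumican and 0.62 with periostin. With each group's mean taken off, decorin and fibronectin still had 0.83, fibromodulin and osteoglycin 0.89, and decorin and lumican 0.71, as did lumican and biglycan.

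**Figure D3:**
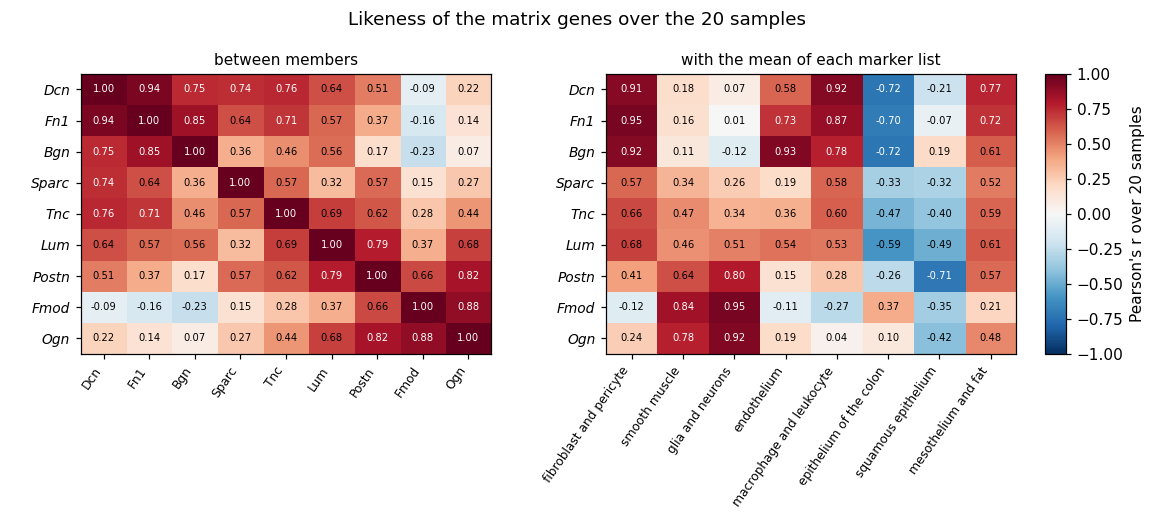
Pearson's r over the 20 samples between the 9 matrix genes (left) and of each gene with the mean log2 ratio of 8 lists of cell type markers (right), on a colour scale from -1 to 1. Decorin, fibronectin and biglycan have 0.91, 0.95 and 0.92 with the fibroblast and pericyte list, but decorin has 0.92 and fibronectin 0.87 with the macrophage and leukocyte list and biglycan has 0.93 with the endothelium list. By contrast, fibromodulin and osteoglycin follow the glia and neuron list at 0.95 and 0.92.

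Among features outside the 9, decorin was most like Npr1, a natriuretic peptide receptor (r = 0.95), Lysmd2 (0.94) and Col18a1, a basement membrane collagen (0.94), and fibronectin was most like Igfbp4 (0.96), Itgb7 (0.95) and Itga1, an integrin subunit (0.93). Biglycan was most like Igfbp4 (0.93), A2m (0.92) and C1s, a complement protease (0.91), and Sparc was most like the mesenchymal filament gene Vim (0.88), Ate1 (0.87) and Ube2n (0.86). Fibromodulin was most like Slc2a4, the insulin-responsive glucose transporter of muscle and fat (0.99), Tacr2, a tachykinin receptor (0.98), and Gap43, a protein of growing nerve endings (0.98).

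Osteoglycin was most like Cthrc1 (0.97), Mfap2, a microfibril component (0.96), and Grb10 (0.96). Lumican was most like Lhfpl6 (0.98), MGC116197 (0.92) and Thbs2, a thrombospondin (0.90). Periostin was most like Fermt2, an integrin activator (0.95), Loxl2, a lysyl oxidase (0.94), and Spink8 (0.93), and tenascin-C was most like Pdlim7 (0.92), Mmp24 (0.88) and Acta1 (0.87).

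Markers of several cell types moved with the groups, and their part in the values above was not tested. Of 10 measured markers of fibroblasts and pericytes, 5 rose and 0 fell in tumours of untreated rats, with a mean over the list of -0.93 to 0.02 in tumours and -1.56 to -0.69 in normal colon. Of 6 measured macrophage and leukocyte markers 3 rose there, led by Lyz2 (2.66 ± 0.31, adjusted p = 2.12e-05 by limma), and the list mean was 0.16 to 0.84 in tumours and -0.72 to -0.24 in normal colon. Of 9 markers of colonic epithelium 3 fell, among them the chloride transporter Slc26a3 (-4.54 ± 0.73, adjusted p = 0.000346). The mesothelium and fat list, with 3 measured genes, had 1 that rose, Adipoq (2.03 ± 0.38), and the endothelial list 1 of 7, Eng (0.23 ± 0.07).

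Smooth muscle markers moved both ways in tumours of untreated rats, where Des (-1.62 ± 0.36) and Smtn (-0.83 ± 0.24) fell and Synm (1.45 ± 0.39) rose, of 6 measured. Over the 20 samples the smooth muscle list had an r of 0.84 with fibromodulin and 0.78 with osteoglycin, and 0.18 with decorin. The mean of the 5 glia and neuron markers in normal colon of untreated rats was highest in rats 10 and 4, at -0.59 and -0.97, and lowest in rat 8, at -1.90. Those are the rats in which fibromodulin was highest, at -0.55 and -0.77, and lowest, at -2.62. Of these samples, that of rat 4 was measured only on an array of raised signal.

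In tumours against normal colon of DSS rats, Rgs5, a pericyte marker, rose (0.70 ± 0.19) and S100a4 fell (-1.69 ± 0.37) among the fibroblast and pericyte markers, Csf1r rose (0.45 ± 0.13) among the leukocyte markers, and Uchl1 rose (1.46 ± 0.41) among the 5 of glia and neurons. Of the colonic epithelium list 2 of 9 fell, Slc26a3 (-3.83 ± 0.73) and Krt20 (-2.60 ± 0.50). None of the smooth muscle, endothelial or mesothelium and fat markers passed there.

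The normal colon of DSS rats also carried transcripts of squamous epithelium, which lines skin and the anal canal and is not part of the normal colonic mucosa. All 9 measured markers of that list rose over the normal colon of untreated rats and were lower in the tumours of DSS rats than in their normal colon, past the test in both, led by Krt5 (2.53 ± 0.21, adjusted p = 1.72e-06 by limma) and Krt10 (3.17 ± 0.29, adjusted p = 4.96e-06). The list mean was 3.01 to 5.05 in normal colon of DSS rats and -0.51 to 1.57 in that of untreated rats, with DSS rat 9 and untreated rat 8 at the upper ends. It was -0.38 to -0.17 in tumours of DSS rats and -0.33 to -0.02 in tumours of untreated rats. Of 6 measured macrophage and leukocyte markers 2 were higher as well, Lyz2 by 2.29 ± 0.31 and Cd68 by 0.95 ± 0.28, and the other 4 did not pass. Of 10 fibroblast and pericyte markers 1 was higher, S100a4 (2.46 ± 0.37). Over the 20 samples the squamous list had an r of -0.21 with decorin, -0.07 with fibronectin and 0.19 with biglycan, and -0.71 with periostin.

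Partners of the 9 genes in the matrix moved unevenly. Of 8 measured collagens that these proteins bind, 4 rose and 0 fell in tumours of untreated rats, namely Col1a2 (1.47 ± 0.32), Col5a2 (1.43 ± 0.35), Col3a1 (1.38 ± 0.35) and Col1a1 (1.49 ± 0.44), all fibril-forming chains, and the list median was 0.86. None of the 8 passed in tumours against normal colon of DSS rats (median 0.47; Col1a2 was nearest at 0.96 ± 0.32, adjusted p = 0.0817), nor between DSS and untreated normal colon (median 0.41; Col3a1 was nearest at 1.09 ± 0.35, adjusted p = 0.0625). Of 12 enzymes that crosslink and process collagen 0 passed in any of the comparisons, with Bmp1 nearest in tumours of untreated rats at 0.28 ± 0.11 (adjusted p = 0.0985).

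Further members of the proteoglycan family were also on the array. Of 6 measured, 0 rose and 2 fell in tumours of untreated rats, Prelp (-0.83 ± 0.15, adjusted p = 0.000989 by limma), which anchors basement membranes to collagen, and Chad (-0.31 ± 0.11, adjusted p = 0.0498). Prelp had a mean of 0.16 in tumours of DSS rats and 0.18 in their normal colon, and of -0.49 in tumours of untreated rats and 0.34 in their normal colon. None of the 6 passed in the other comparisons. Nyx, Kera and Optc, however, were well above background on 5 of 24 arrays each, the least the filter allowed, and so had little room to show a change.

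Among 20 other matricellular and stromal matrix genes, 3 rose and 1 fell in tumours of untreated rats. Ccn1 (3.25 ± 0.54) and Ccn2 (2.60 ± 0.44), secreted proteins induced by growth factors and by stretch, had the largest differences of the list, Spp1 (osteopontin) rose by 1.08 ± 0.20, and Thbs4, a thrombospondin, was at -1.99 ± 0.37. In tumours against normal colon of DSS rats Nid1, a basement membrane linker, rose by 1.13 ± 0.21 and Spp1 by 0.72 ± 0.20, and Thbs4 was lower (-1.25 ± 0.37). In normal colon Nid1 was lower in DSS than in untreated rats (-0.74 ± 0.21, adjusted p = 0.0385 by limma), and it was the 1 of 20 that passed.

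**Figure D4:**
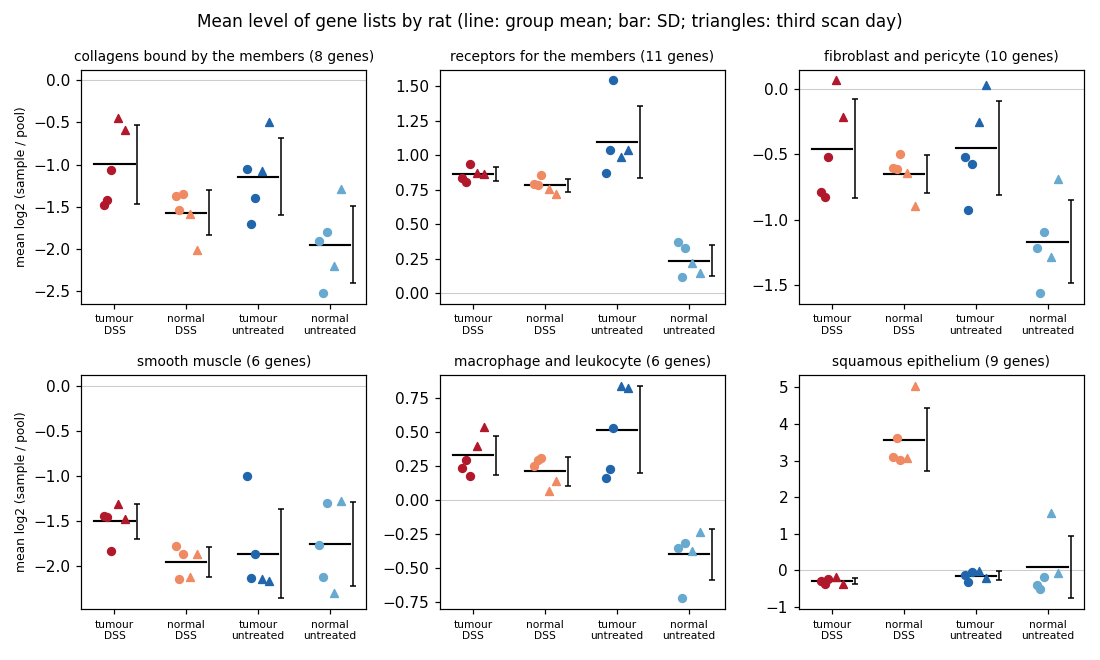
Mean log2 ratio over the wild-type pool (vertical axis) of 2 matrix gene lists and 4 lists of cell type markers in each rat, by group (horizontal axis), with the group mean as a line and the SD as a bar (n = 5 rats; triangles are slides of the third scan day). The receptor list lies at 0.11 to 0.37 in normal colon of untreated rats and at 0.72 or above in the other 3 groups, and the squamous list is high in normal colon of DSS rats.

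Receptors for these proteins held the largest single difference among the 7 matrix lists described here. Of 11 measured, 3 rose in tumours of untreated rats, Cd44, a hyaluronan receptor that also binds osteopontin (4.65 ± 0.25, adjusted p = 6.68e-09 by limma), Tlr2, which recognises free biglycan (2.30 ± 0.25), and Itgav, an integrin chain shared by receptors for fibronectin and periostin (1.60 ± 0.27). In normal colon of DSS rats over untreated rats 4 of 11 rose, Cd44 (2.89 ± 0.25), Tlr2 (1.90 ± 0.25), Itgav (1.28 ± 0.27) and the syndecan Sdc1 (0.77 ± 0.21). For Cd44, Tlr2 and Itgav the DSS effect in tumours was smaller than that in normal colon by a difference that passed (-3.09 ± 0.35, -2.25 ± 0.36 and -2.22 ± 0.39), and in tumours against normal colon of DSS rats 1 of 11 rose, Cd44 (1.56 ± 0.25).

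Of 8 TGF-beta ligands, receptors and binding proteins, a pathway whose ligand decorin and biglycan can hold, 2 rose in tumours of untreated rats, Tgfb1 (0.95 ± 0.19) and the latent binding protein Ltbp1 (1.23 ± 0.40). The same genes were the 2 of 8 that rose in normal colon of DSS rats, Ltbp1 by 2.36 ± 0.40 and Tgfb1 by 0.70 ± 0.19, and their DSS effect was smaller in tumours by -2.20 ± 0.57 and -1.05 ± 0.27. Of 9 measured proteases that cut stromal matrix, 2 rose in tumours of untreated rats, Mmp14 (1.36 ± 0.30) and Mmp9 (0.64 ± 0.14), and 1 fell, Adamts2 (-0.33 ± 0.11). In normal colon of DSS rats 1 of 9 rose, Adamts1, a protease of large proteoglycans (1.53 ± 0.25). In tumours against normal colon of DSS rats Mmp11 rose (0.34 ± 0.09) and Adamts1 fell (-0.88 ± 0.25). None of the genes in these lists passed between tumours of DSS and untreated rats.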

How the data were processed

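Per the labels, RNA of tumours and normal distal colon was labelled with Cy3 and hybridised on Agilent 2-colour arrays against Cy5-labelled wild-type colon RNA. The deposited intensity values are scanner output of Agilent software (the file headers give Feature Extraction version 9.1.3.1). The submitters' processing notes also name Partek, whose role is not given in the sources used here. The log10 ratio column of the deposited files served to check the direction.

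Mean signals were corrected for the background median with normexp (offset 50, limma 3.58.1, R 4.3.3) and loess-normalised within arrays, and log2 ratios of Cy3 over Cy5 were computed from the deposited intensities. Probes well above background in Cy3 on at least 5 of 24 arrays were kept, and the brightest probe stands for a gene. Of 26097 features, 12613 have a current RefSeq symbol and the rest keep the file's name. Missing values, 0.0747% of the table, touched none of the 9 genes. Arrays of 1 rat and tissue were averaged, giving 20 samples, 5 per group. The number of arrays limits the precision. The means of the 4 groups were fitted with limma over all 20 samples, with Benjamini-Hochberg adjustment over all features. The procedure was tested on simulated data.

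Rat numbers in the labels tie tumour and normal colon to 1 animal; over all features, deviations from the group means correlated within a rat at 0.0796 to 0.567. A fit with the rat as replicate block was therefore an alternative, fixed for tissue and random for DSS. Scan sets come from the file headers.

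Members and gene lists were chosen with earlier results of these data known. Genes are named by rule: each member, up to 4 genes of a list with the smallest p past the threshold (or, with none, the 1 with the smallest p), and the 3 named features most correlated with each member.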

Additional observations from a re-analysis of the deposited data

How the results depend on the processing

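Over 25 alternatives no call of a single gene changed direction, and 0 genes passed between tumours of DSS and untreated rats in any of them. For tumours against normal colon of untreated rats, 3 genes passed; the count was 5 with a normexp offset of 10, a stricter filter, the scan set as a block, array weights or the rat as a fixed replicate block, 6 with the deposited processed signals, and 1 with median centring (Dcn) or scaling between arrays (Tnc); it was 2 to 4 when 1 rat was left out. Over all features the count there was 4750, against 6615 with the scan set as a block, 6547 with the fixed replicate block, 5950 with the deposited signals, 5682 with array weights, 2345 with scaling, 903 with median centring and 2628 without rat 8. It was 4642 with offset 10 and 4771 of 21157 features with the stricter filter. For tumours against normal colon of DSS rats, 0 passed. The count was 1 with offset 10, median centring or the scan set as a block, 2 with the deposited signals or the slide as a block, 3 with the fixed replicate block, and 0 to 1 when 1 rat was left out. Over all features the count there was 1998, against 3260 with the fixed replicate block and 3200 with the scan set as a block. It was 2954 with the slide as a block, 2813 with the deposited signals, 1896 with offset 10 and 653 with median centring. For normal colon of DSS against untreated rats, 2 passed; the count was 4 with the deposited signals, the earlier scans alone or array weights, 0 with median centring, scaling or the third-day scans alone, 1 with the mean of probes (Dcn) or with DSS rats 1 and 5 as 1 sample (Fn1), and 0 to 3 when 1 rat was left out, with 0 without rat 2, 3 or 6; with the slide as a block it was 2 again, but Bgn and Fn1 in place of Dcn and Fn1. Over all features the count for normal colon was 1923, against 5073 with array weights, 3115 with the earlier scans alone and 2715 with the deposited signals. It was 1231 with scaling, 363 with median centring and 2 with the third-day scans alone. With the mean of probes it was 1911, with DSS rats 1 and 5 as 1 sample 1464 and with the slide as a block 3022. For the difference of the DSS effects, 0 passed. The count was 1 with the deposited signals (Dcn) or the earlier scans alone (Fn1), and 2 with array weights. Over all features that count was 681, against 1234, 418 and 1192 in the same order. The cause of these shifts was not tested, except that the scans of a part of the days hold fewer samples. Without the 3 arrays of raised signal the counts were 4, 0, 2, 0 and 0, in the order tumours of untreated rats, tumours of DSS rats, normal colon, tumours, and difference. Over all features the counts without these arrays were 4319, 1484, 1312, 0 and 316 in the same order. The replicate block changed no member's call other than those named beside the results. Median centring moved the median of all features by 0.23 on the log2 scale in tumours against normal colon of DSS rats, by 0.22 between tumours and by 0.36 in the difference of the DSS effects. Ogn, Lum and Tnc are limited by signal, being well above background on 15, 21 and 19 of 24 arrays.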
